A study of Mus musculus with 2 samples.

Results

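The 37 genes described here encode the enzymes that build cholesterol and fatty acids, the factors that control them, and a few proteins that store or export the products. They were picked by gene symbol from a list of pathway genes drawn up with earlier results of these data known, with no threshold on a measured value, and 36 of the 37 were found among the 22020 symbols of the deposited table; Hmgcs1 was not analysed here. A symbol with several transcripts was represented by the one most abundant on average. The samples were LSK cells, the bone marrow fraction without lineage markers but with c-Kit and Sca-1 on the surface, which holds blood stem cells and early progenitors. They came from mice of the C57BL/6 background at an age of 8 weeks. One library was from p53 KO mice, which lack the tumour suppressor p53, and the other from Utx/p53 DKO mice, which also lack the histone demethylase Utx (gene Kdm6a). Both groups therefore lack p53, and no sample with intact p53 was compared. The sources used here do not give how the alleles were deleted or how many mice went into each library.

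Cells make cholesterol from acetyl-CoA through mevalonate and squalene, and fatty acids through malonyl-CoA. The transcription factor SREBP-2 (gene Srebf2) mainly drives the sterol enzymes and low-density lipoprotein uptake, and SREBP-1 (Srebf1) mainly the fatty acid enzymes. INSIG proteins hold both precursors in the endoplasmic reticulum when sterols are plentiful. Sterol excess activates LXR receptors, which raise the cholesterol exporters ABCA1 and ABCG1, known in mice to restrain the expansion of blood stem and progenitor cells.

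Each genotype had 1 library, of 17088105 reads for the p53 KO and 19926294 for the DKO, so no difference below has a replicate check and no test was made. Levels are in RPKM, reads scaled to the length of the transcript and to the read total of the library. The RPKM values of every member could be turned back into whole reads, and 95% intervals of a ratio are exact (Clopper-Pearson) and cover counting error only. Genes whose 2 values averaged 1 RPKM or more are called measured. Higher or lower means that log2(RPKM + 1) differed by 1 or more, which is 2-fold on that scale. Values are given with the p53 KO library first. Of the targeted genes, Kdm6a was at 5.32 and 1.26 RPKM and Trp53 at 19.4 and 12.9 RPKM; the labels do not name the deleted exons, so reads over the whole transcript check the labels only in part.

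The 2 libraries also differed in their cell type markers. Both genes of the sort gate were present, but 1 of them was lower in the DKO library. Kit was at 64.2 and 16 RPKM, 4.01-fold lower (95% interval 3.79 to 4.24). Ly6a, which encodes Sca-1, was within 2-fold, at 255 and 281 RPKM. In the DKO library 13 of 16 measured granulocyte and monocyte markers had higher values and 2 lower ones, and their summed level was 6371 and 71559 RPKM, with Elane at 1649 and 26714 RPKM. Of 7 measured macrophage markers 6 were higher (sum over the list 52.6 and 227 RPKM). Of 8 measured stem cell markers 6 were lower and 0 higher (617 and 102 RPKM), with Meis1 at 134 and 15.7 RPKM. Lower were also 6 of 6 erythroid markers (717 and 87.4 RPKM) and 8 of 9 lymphoid markers (420.2 and 37.2 RPKM). With the authors' normalization constants, described below, 4 of the 8 stem cell markers were lower and all 7 macrophage markers higher. Of the 16 granulocyte and monocyte markers 13 were then higher and 1 lower. None of the 8 hepatocyte markers was measured. In these bulk libraries fewer cells of a type and less RNA per cell cannot be told apart, and the part of these marker differences in the results below was not tested.

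Of the 36 members 34 were measured; Dgat2 reached the mean of 1 RPKM only through the DKO library and Lss only through the p53 KO library. In the DKO library 4 of them were at least 2-fold higher (11.8%, against 6.6% of all 11356 measured genes) and 6 at least 2-fold lower (17.6%, against 13.5%). The higher members were Mogat2, Dgat2, Acsl1 and Sc5d. The lower members were Elovl6, Fads2, Srebf2, Abcg1, Fasn and Lss. The median difference of the members was -0.17 on the log2 scale, close to the -0.24 of all measured genes. The summed level of the members was likewise near equal, at 628 and 612 RPKM. The list as a whole thus lay near the middle of all genes, while its members ranged from -2.82 to 4.28. The 2 members below the filter, Scd1 and Abca1, are described with their groups.

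**Figure D1:**
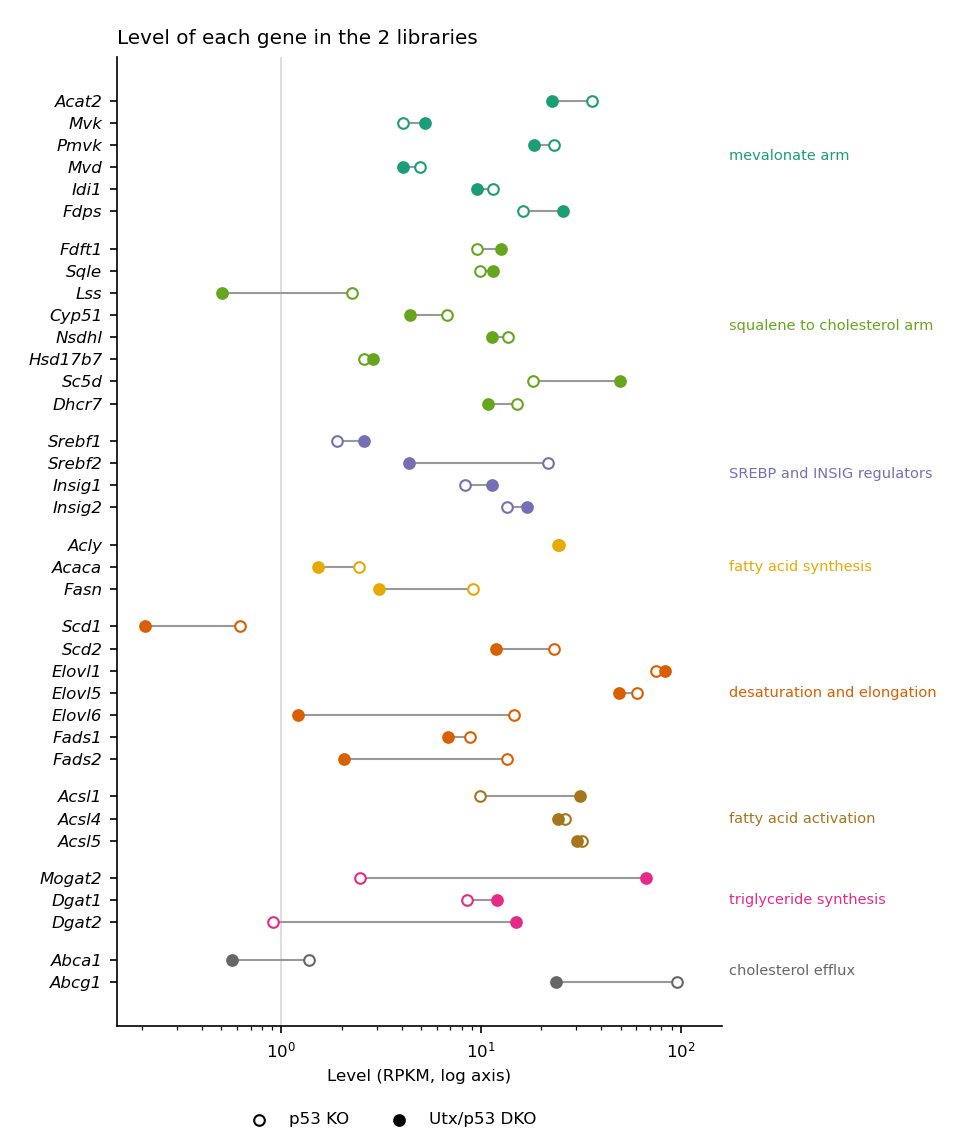
Level of the 36 genes in RPKM (log axis) in the p53 KO library (open circles) and the Utx/p53 DKO library (filled circles), grouped by role; the grey line marks 1 RPKM. The longest lines are those of Mogat2 and Dgat2, which were higher in the DKO library, and Elovl6, which was lower.

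The balance of higher and lower members depended on how the libraries were scaled. The authors' gfold run used normalization constants of 1.30144 for the p53 KO and 1 for the DKO library, which raises every DKO value by 0.60 on the log2 scale relative to RPKM. With these constants 6 of 34 members were higher (17.6%, against 16.5% of all measured genes) and 4 lower (11.8%, against 6.27%). Fdps and Dgat1 then joined the higher members, and Lss and Fasn left the lower ones. The remaining 8 of the 10 members past the size rule, Mogat2, Dgat2, Acsl1, Sc5d, Elovl6, Fads2, Srebf2 and Abcg1, were past it under all 5 scalings compared. Of the 24 members within 2-fold, 14 changed sign between scalings, so no direction is given for them. In the authors' deposited table the GFOLD value, a log2 fold change shrunk for low counts, was above 0 for 22 of the 34 members, below 0 for 7 and 0 for 5. Over all measured genes it was above 0 for 6185, below 0 for 2601 and 0 for 2570.

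**Figure D2:**
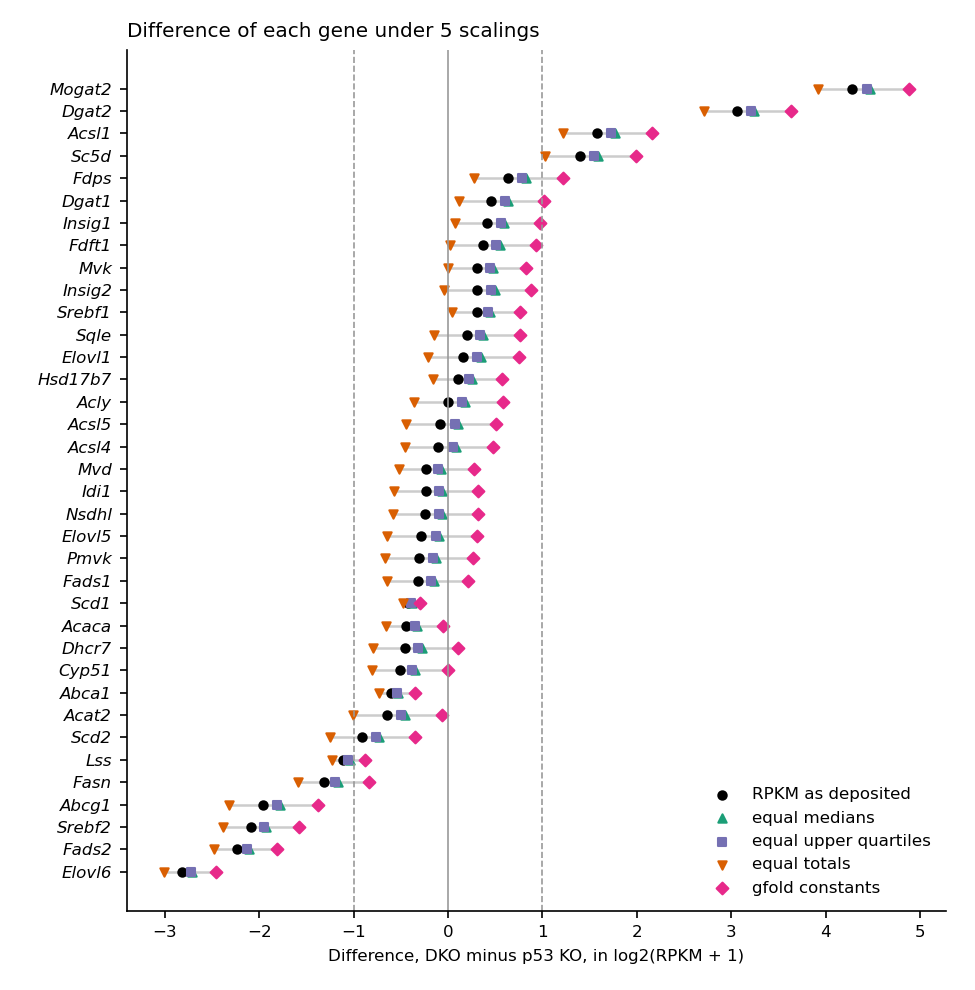
Difference of each gene between the DKO and the p53 KO library in log2(RPKM + 1), under the deposited RPKM and 4 other scalings (symbols); grey bars join the lowest and highest value and dashed lines mark 2-fold. Mogat2, Dgat2, Acsl1 and Sc5d lie right of the upper dashed line and Abcg1, Srebf2, Fads2 and Elovl6 left of the lower one under all 5 scalings.

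Promoter sequences are shown for 7 of the 10 members past the size rule, so that those that were lower can be read beside those that were higher. The windows run from 250 bases before to 50 after an annotated start, in RefSeq on the GRCm38.p6 build; 26 members matched by symbol, with 35 windows. No window was matched for Fdps, Fdft1, Sqle, Dgat1, Dgat2, Mogat2, Scd1, Scd2, Fads1 and Abcg1. Each window covers an annotated start and the bases just upstream on the strand named, 5′ to 3′, and capitals mark the motifs searched. These were the core of the sterol regulatory element (TCACNCCAC), the E-box (CACGTG), the CCAAT box (CCAAT) and the GC box (GGGCGG), on both strands, with overlapping matches kept. Lower in the DKO library were the following 5.
Srebf2, chr15:82147019-82147318, plus strand: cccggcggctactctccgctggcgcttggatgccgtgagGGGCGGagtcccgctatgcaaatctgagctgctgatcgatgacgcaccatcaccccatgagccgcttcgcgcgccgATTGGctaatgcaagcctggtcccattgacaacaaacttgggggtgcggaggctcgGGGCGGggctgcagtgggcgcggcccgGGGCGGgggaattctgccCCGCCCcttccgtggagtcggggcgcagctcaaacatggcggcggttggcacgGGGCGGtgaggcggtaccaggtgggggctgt
Lss, chr10:76531355-76531654, plus strand: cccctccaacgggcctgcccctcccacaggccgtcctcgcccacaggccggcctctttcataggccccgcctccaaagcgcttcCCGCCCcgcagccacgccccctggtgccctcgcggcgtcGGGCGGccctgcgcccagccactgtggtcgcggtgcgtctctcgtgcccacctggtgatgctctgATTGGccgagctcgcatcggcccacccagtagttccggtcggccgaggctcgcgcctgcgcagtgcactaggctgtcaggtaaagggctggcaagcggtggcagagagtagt
Fasn, chr11:120824498-120824797, minus strand: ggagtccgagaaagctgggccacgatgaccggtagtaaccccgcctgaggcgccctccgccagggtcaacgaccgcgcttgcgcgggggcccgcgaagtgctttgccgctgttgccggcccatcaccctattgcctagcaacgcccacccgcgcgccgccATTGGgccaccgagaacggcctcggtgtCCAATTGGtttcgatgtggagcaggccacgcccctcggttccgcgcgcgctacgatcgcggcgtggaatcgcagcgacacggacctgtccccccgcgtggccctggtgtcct
Elovl6, chr3:129532136-129532435, plus strand: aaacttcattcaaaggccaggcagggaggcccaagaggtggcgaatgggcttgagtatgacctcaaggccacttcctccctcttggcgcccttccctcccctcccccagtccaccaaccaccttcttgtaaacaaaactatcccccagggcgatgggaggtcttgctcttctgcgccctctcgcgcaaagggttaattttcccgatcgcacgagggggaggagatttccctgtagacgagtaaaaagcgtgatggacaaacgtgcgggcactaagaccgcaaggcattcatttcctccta
Fads2, chr19:10101454-10101753, minus strand: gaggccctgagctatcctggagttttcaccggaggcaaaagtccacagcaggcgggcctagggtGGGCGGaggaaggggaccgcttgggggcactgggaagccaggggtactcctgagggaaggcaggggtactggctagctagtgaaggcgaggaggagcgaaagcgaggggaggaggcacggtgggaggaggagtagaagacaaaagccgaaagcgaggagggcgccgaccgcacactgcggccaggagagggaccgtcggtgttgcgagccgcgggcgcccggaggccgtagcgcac
Higher in the DKO library were the following 2. For Acsl1 the second of its 2 windows is shown because it holds the sterol element. That window lies downstream of the first, at another annotated start. The first window of Acsl1 held 7 GC boxes and none of the other motifs, at 74% G and C. Which start these cells used was not measured.
Sc5d, chr9:42264251-42264550, minus strand: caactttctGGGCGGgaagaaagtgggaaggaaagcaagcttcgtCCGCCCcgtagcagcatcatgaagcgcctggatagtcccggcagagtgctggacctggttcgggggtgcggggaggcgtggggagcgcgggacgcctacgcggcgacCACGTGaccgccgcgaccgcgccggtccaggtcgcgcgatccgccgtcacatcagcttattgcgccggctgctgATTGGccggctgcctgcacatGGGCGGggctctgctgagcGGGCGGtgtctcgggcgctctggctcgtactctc
Acsl1, chr8:46490716-46491015, plus strand: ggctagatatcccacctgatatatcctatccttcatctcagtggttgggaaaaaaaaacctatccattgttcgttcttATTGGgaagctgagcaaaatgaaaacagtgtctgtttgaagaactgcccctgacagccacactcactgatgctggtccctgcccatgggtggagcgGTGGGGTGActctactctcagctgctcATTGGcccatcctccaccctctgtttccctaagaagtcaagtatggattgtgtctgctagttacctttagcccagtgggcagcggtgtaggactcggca

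The motifs differed in how often they occurred. The sterol element core was in 1 of the 35 member windows, the second window of Acsl1 (2.86%, against 1.24% of all 32851 windows). The E-box was in 17.1% of the member windows (7.15% of all), among them that of Sc5d. It was in none of the 5 windows of lower members shown, and in neither window of the higher member Acsl1. The other members with it, Abca1, Dhcr7, Elovl5, Hsd17b7 and Insig1, were within 2-fold or below the filter. The CCAAT box was in 60.0% (37.4% of all), including Srebf2, Lss, Fasn, Sc5d and Acsl1. The GC box was in 68.6% (35.7% of all), including Srebf2, Lss, Fads2, Sc5d and the first window of Acsl1. The member windows were also richer in G and C, at a median of 62.3% against 52.7% in all windows. The Elovl6 window held none of these motifs. A match is a description of letters only, and a missing one says nothing of other sites or variants of the motif.

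The regulators were split, with Srebf2 lower and the other members within 2-fold. The level of Srebf2 was 21.7 RPKM in p53 KO and 4.36 RPKM in DKO cells (1697 and 397 reads), a 4.98-fold lower value in the latter (95% interval 4.47 to 5.57). Srebf1 was at 1.91 and 2.59 RPKM (140 and 222 reads). In the p53 KO library Srebf2 thus had 11.4 times the level of Srebf1, and in the DKO library 1.68 times. This within-library ratio of Srebf1 to Srebf2 was 6.78-fold higher in the DKO library (95% interval 5.34 to 8.60) and does not depend on the scaling. The INSIG genes, whose products retain the SREBP precursors, were at 8.27 and 11.3 RPKM (Insig1) and at 13.5 and 17.0 RPKM (Insig2). Their ratio to each other differed by 1.09-fold between the libraries, with a 95% interval of 0.896 to 1.33 that includes 1. In RefSeq the span of Srebf2 holds the microRNA gene Mir33, which was listed at 0 RPKM in both libraries and whose mature product such a library does not capture. The span of Srebf1 overlaps Rai1, which was at 1.89 and 0.451 RPKM, so part of its reads may belong there.

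The 14 sterol enzymes lay near the all-gene median as a group. Their median difference was -0.23, and their summed level was 174 and 189 RPKM. In RPKM as deposited 1 was at least 2-fold higher and 1 lower, against 6.6% and 13.5% of all measured genes. With the gfold constants 2 were higher and 0 lower, against 16.5% and 6.27%. In the mevalonate arm, from acetyl-CoA to farnesyl diphosphate, all 6 genes were within 2-fold in RPKM as deposited. Acat2, which joins 2 acetyl-CoA, was at 36 and 22.6 RPKM, and it had the lowest difference of this arm (-0.65), which was -1.003 and just past 2-fold when the libraries were scaled to equal totals. Fdps, which makes farnesyl diphosphate, was at 16.2 and 25.7 RPKM and had the highest (0.63). It was past 2-fold with the gfold constants (1.22). Between them lay the kinases Mvk (4.06 and 5.26 RPKM) and Pmvk (23.1 and 18.4 RPKM), the decarboxylase Mvd (4.92 and 4.05 RPKM) and the isomerase Idi1 (11.4 and 9.56 RPKM).

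The arm from squalene to cholesterol held the enzymes that differed most, and in opposite directions. Sc5d, which introduces a double bond late in the pathway, was at 18.3 and 49.7 RPKM (702 and 2228 reads), 2.72-fold higher in the DKO library (95% interval 2.50 to 2.97). Lss, which closes the sterol rings to form lanosterol, was at 2.24 and 0.502 RPKM (119 and 31 reads), 4.48-fold lower (95% interval 2.99 to 6.88). Both act in the same linear pathway, and the level of Sc5d was 8.14 times that of Lss in p53 KO cells and 99.1 times in DKO cells. Lss was the least abundant of these enzymes in both libraries, and its difference of -1.11 was -0.88 with the gfold constants and -0.40 with a pseudocount of 5. The other 6 stayed within 2-fold. Fdft1, which commits farnesyl diphosphate to squalene, was at 9.55 and 12.6 RPKM, and Sqle, a rate-controlling epoxidase, at 9.84 and 11.4 RPKM. The span of Fdft1 overlaps Ctsb, a lysosomal protease gene at 93 and 107 RPKM. Cyp51, which removes a methyl group from lanosterol, was at 6.74 and 4.43 RPKM. Nsdhl was at 13.6 and 11.3 RPKM and Hsd17b7 at 2.60 and 2.87 RPKM; both take part in removing further methyl groups. Dhcr7, which performs the last reduction to cholesterol, was at 15.2 and 10.8 RPKM.

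Of the genes that make and modify fatty acids 3 of 9 measured members were lower in the DKO library and 0 higher (against 13.5% and 6.6% of all measured genes), with a median difference of -0.45. With the gfold constants 2 of the 9 were lower and 0 higher (against 6.27% and 16.5%). Fasn, the multienzyme that builds palmitate, was at 9.16 and 3.08 RPKM (1555 and 610 reads), 2.97-fold lower (95% interval 2.71 to 3.27). Its difference of -1.32 was -0.84 with the gfold constants and -0.81 with a pseudocount of 5, both within 2-fold. The enzymes that supply it were within 2-fold: Acly, which makes cytosolic acetyl-CoA from citrate, was at 24.4 RPKM in both libraries, and Acaca, which makes malonyl-CoA, was at 2.44 and 1.52 RPKM. The span of Acaca overlaps Tada2a, which was at 11.5 and 7.18 RPKM.

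Elovl6 had the lowest difference of all members in RPKM as deposited, although with a pseudocount of 5 Abcg1 lay lower (-1.81 against -1.66). This enzyme extends palmitate to stearate, and its level was 14.5 RPKM in p53 KO and 1.21 RPKM in DKO cells (1479 and 143 reads), 12.1-fold lower (95% interval 10.2 to 14.4). The other elongases were within 2-fold: Elovl1, which acts on saturated very long chains, was at 75 and 83.5 RPKM, and Elovl5, which acts on polyunsaturated chains, at 60.2 and 49.2 RPKM. Elovl5 was therefore 4.14 times as abundant as Elovl6 in the p53 KO library and 40.8 times in the DKO library. Elovl1, the most abundant member in the DKO library, overlaps the cell cycle gene Cdc20, which was at 14.7 and 15 RPKM.

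The desaturases Fads2 and Fads1, adjacent genes on chromosome 19, also separated. Fads2, whose enzyme starts the synthesis of long polyunsaturated fatty acids, was at 13.5 and 2.06 RPKM (347 and 62 reads), 6.53-fold lower (95% interval 4.97 to 8.70). Fads1, which acts later in that route, was at 8.80 and 6.84 RPKM. The ratio of Fads2 to Fads1 was 1.53 and 0.302, 5.07-fold lower in DKO cells (95% interval 3.76 to 6.83). The stearoyl-CoA desaturases, which make monounsaturated fatty acids, were led by Scd2 at 23.2 and 11.8 RPKM (2158 and 1287 reads). Its difference of -0.91 lay just inside the size rule, and it was past it when the libraries were scaled to equal totals (-1.25). Scd1, the main form of liver and fat, was below the filter at 0.617 and 0.208 RPKM (51 and 20 reads). Scd1 and Scd2 are close copies in a cluster with Scd3 and Scd4, and the sources used here do not say how reads that map to several copies were counted.

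The transcripts that differed most in the upward direction belonged to fatty acid activation and triglyceride synthesis. Acsl1, which couples long-chain fatty acids to coenzyme A, was at 9.84 and 31.3 RPKM (654 and 2427 reads), 3.18-fold higher in the DKO library (95% interval 2.92 to 3.47). Its relatives were within 2-fold: Acsl4, which prefers arachidonic acid, was at 26.3 and 24.4 RPKM and Acsl5 at 32.0 and 30.2 RPKM. Acsl1 was thus the least abundant of the 3 in the p53 KO library and, by a narrow margin over Acsl5 (1.04 times), the most abundant in the DKO library. Its ratio to Acsl4 was 3.42-fold higher (95% interval 3.09 to 3.80) and to Acsl5 3.38-fold higher (95% interval 3.03 to 3.76).

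In RPKM as deposited Mogat2 and Dgat2 had the largest differences of all members. Dgat2 came after Elovl6 with equal totals (2.71 against -3.01) and after Abcg1 with a pseudocount of 5 (1.75 against -1.81). Mogat2 joins a fatty acid to monoacylglycerol and is best known from fat absorption in the intestine. Its level was 2.48 RPKM in p53 KO and 66.7 RPKM in DKO cells (75 and 2356 reads), 26.9-fold higher (95% interval 21.4 to 34.4). Dgat2, which adds the last fatty acid of a triglyceride, was at 0.910 and 14.9 RPKM (35 and 670 reads), 16.4-fold higher (95% interval 11.7 to 23.8). Dgat1 carries out the same step with an unrelated protein and was at 8.50 and 12 RPKM (255 and 421 reads). Dgat1 therefore had 9.34 times the level of Dgat2 in the p53 KO library, while in the DKO library Dgat2 was slightly above it, at 1.24 times its level. The ratio of Dgat2 to Dgat1 was 11.6-fold higher (95% interval 7.98 to 16.8).

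Mogat2 and Dgat2 belong to 1 gene family and are next to each other on chromosome 7 in the RefSeq gene order, with 0 protein-coding genes between them. The genes on either side were within 2-fold or below the filter. Uvrag, beside Dgat2, was at 4.56 and 4.39 RPKM, and Map6 (listed as Mtap6), beside Mogat2, at 0.0512 and 0 RPKM. Further out, Thap12 (Prkrir) was at 8.32 and 5.86 RPKM and Serpinh1 at 3.75 and 1.73 RPKM. Of the 8 genes in this stretch, chosen after the values of the pair were seen, only Dgat2 and Mogat2 were at least 2-fold higher. Mogat1, another monoacylglycerol acyltransferase gene, was below the filter, with 5 and 1 reads.

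Fat cell markers were looked at beside these triglyceride genes. Of 8 adipocyte markers 3 were measured, and all 3 were higher in the DKO library: Lpl, the lipoprotein lipase that macrophages also make, at 2.25 and 47.0 RPKM, Cfd at 0.0634 and 4.08 RPKM and Fabp4 at 0.730 and 2.74 RPKM. Cfd and Fabp4 reached the mean of 1 RPKM only through the DKO library. The summed level of the list was 4.26 and 55.8 RPKM. Lep, the leptin gene, was below the filter at 0.234 and 1.34 RPKM (13 and 87 reads), 5.74-fold higher in the DKO library (95% interval 3.19 to 11.2). Adipoq (5 and 8 reads) and Retn (1 and 4 reads) were near 0, and Plin1 (4 and 0 reads) and Cidec (15 and 0 reads) had no read in the DKO library, where a count of 0 allows up to 3 reads. By its 95% interval Cidec, also below the filter, was at least 4.18-fold lower in the DKO library. The part of these markers in the triglyceride result was not tested.

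The cholesterol exporters were lower or near the filter. Abcg1, which passes cholesterol to lipoprotein particles, was the most abundant member in the p53 KO library, at 95.3 RPKM against 23.7 RPKM in the DKO library (9475 and 2747 reads). It was 4.02-fold lower (95% interval 3.85 to 4.20), the most precise ratio among the members. Abca1, which exports cholesterol to lipid-poor apolipoproteins, was below the filter, with a mean of 0.974 RPKM, at 1.38 and 0.567 RPKM (242 and 116 reads). The ratio of Abcg1 to Abca1 was 69.0 and 41.8. Of 7 measured LXR genes and other LXR targets 0 were at least 2-fold higher or lower, against 6.6% and 13.5% of all measured genes. The differences of these 7 ranged from -0.91 to 0.31.

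**Figure D3:**
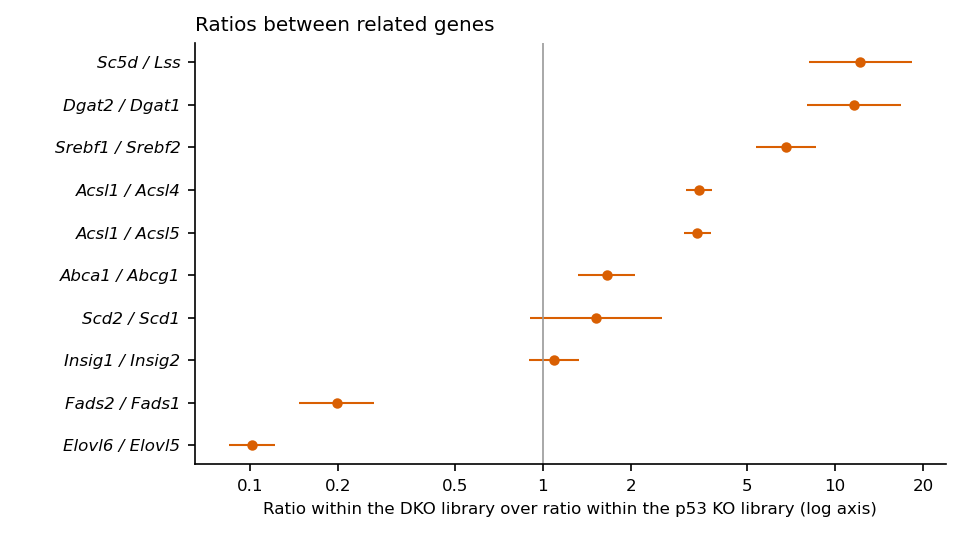
Ratio of 1 gene to a related gene within the DKO library, divided by the same ratio within the p53 KO library (log axis), with 95% intervals from read counts. The 10 pairs were chosen after the values were seen; Sc5d to Lss and Dgat2 to Dgat1 lie above 10, and Elovl6 to Elovl5 is the lowest.

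Around these members, the other genes of lipid metabolism had a median difference of -0.19, near the -0.24 of all measured genes. Of 61 measured genes on 5 further lists 2 were higher and 5 lower. Both are smaller shares than the 6.6% and 13.5% of all measured genes. The further sterol genes (13 measured) had 1 higher, Soat1, which esterifies cholesterol for storage, at 10.2 and 38.8 RPKM (838 and 3699 reads). Of 11 further fatty acid synthesis genes 3 were lower. These were the elongation reductase Hsd17b12, at 136 and 56.6 RPKM, the desaturase family gene Fads3, at 2.20 and 0.276 RPKM, and Acsl3, at 4.24 and 1.26 RPKM. Fads3, with 123 and 18 reads, reached the mean of 1 RPKM only through the p53 KO library. With the gfold constants only Fads3 stayed lower (-1.17), while Hsd17b12 (-0.66) and Acsl3 (-0.84) were within 2-fold, and 1 of the 11 was higher. In the glycerolipid and lipid droplet list (11 measured) the droplet coat gene Plin2 was higher, at 36.4 and 77.3 RPKM. Lower there were Lpin2, a phosphatidate phosphatase, at 22.0 and 6.09 RPKM, and the lipase gene Lipe, at 6.82 and 1.57 RPKM. All 19 fatty acid oxidation genes were within 2-fold, from -0.63 to 0.48. With the gfold constants 8 of the 61 were higher and 3 lower, against 16.5% and 6.27% of all measured genes.

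**Figure D4:**
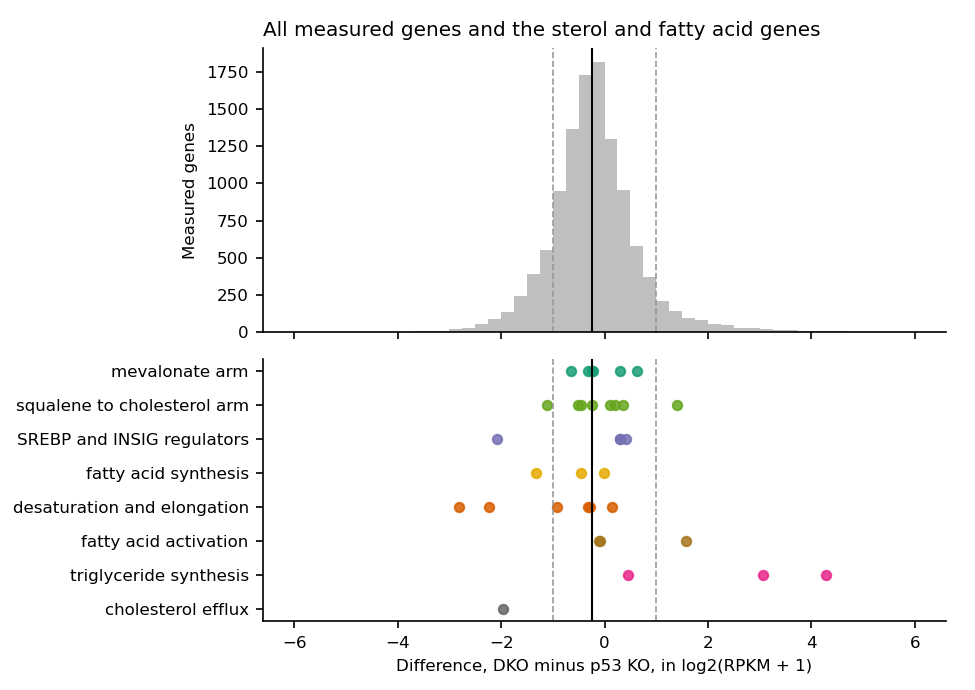
Top, number of measured genes by their difference between the DKO and the p53 KO library in log2(RPKM + 1); bottom, the 34 measured members by role, each point a gene. The black line marks the all-gene median (-0.24) and dashed lines 2-fold; the mevalonate arm lies around the median and the triglyceride genes to its right.

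**Figure D5:**
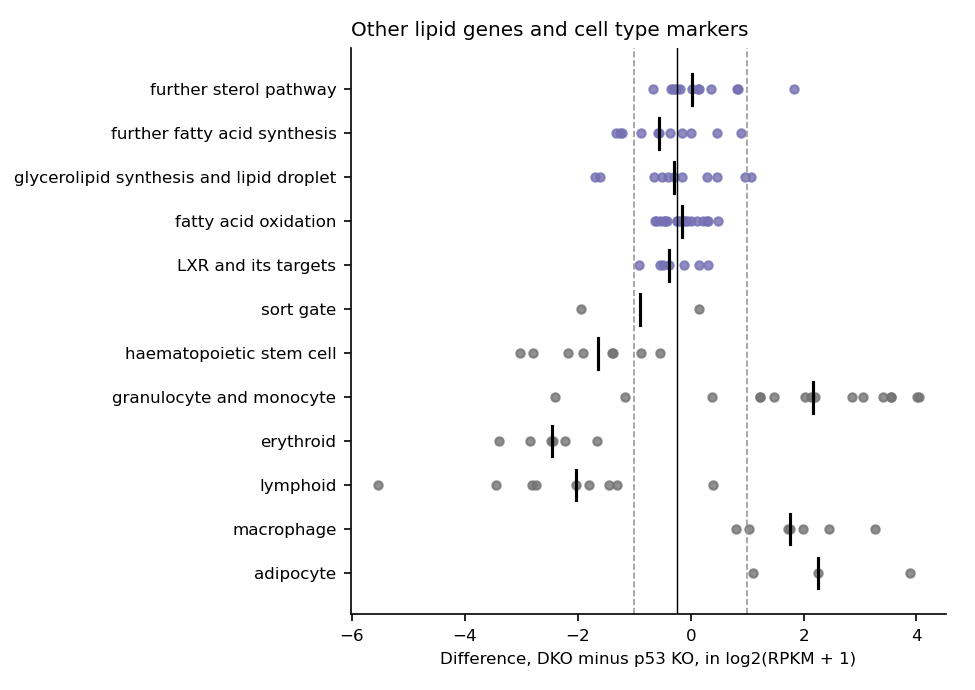
Difference between the DKO and the p53 KO library in log2(RPKM + 1) for the measured genes of 5 further lipid lists (purple) and of the cell type marker lists (grey); short bars are list medians, the thin line is the all-gene median and dashed lines mark 2-fold. The 19 fatty acid oxidation genes lie between the dashed lines, whereas most granulocyte and monocyte markers lie to the right and most stem cell, erythroid and lymphoid markers to the left.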

How the data were processed

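RNA-seq of LSK cells was analysed from 2 libraries, 1 per genotype, grouped by the genotype in the labels. The build mm9 and the tools TopHat2 2.1.0 and bcl2fastq 1.8.4 are named in the submitters' processing notes, and gfold 1.1.4 made the table, per the file headers. For 28344 RefSeq transcripts the deposited table holds RPKM values, the authors' log2 fold change and GFOLD value, and the E-FDR column, a q-value equal to 1 throughout. The sources used here do not state strandedness or the handling of multi-mapped reads. The RPKM columns were matched to the samples by the order of the libraries in the header, and each gave whole reads with its own library's read total.

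Computed here (Python 3.11.15, pandas 2.3.3, scipy 1.17.1) were differences in log2(RPKM + 1), which understate the change of low genes, for the 11356 genes averaging 1 RPKM or more. Whole reads were recovered by finding the transcript length at which both RPKM values are whole reads and fit the deposited log2 fold change. This gave a single length for 96.0% of 24644 transcripts that had reads; the search was tested on simulated data. The measured members had a median of 508 reads (p53 KO) and 601 (DKO). Intervals of ratios between related genes are normal approximations on the log scale, from 4 read counts. All p-values were omitted because 1 library per genotype leaves none to compute. The members, lists and motifs were chosen with earlier results of these data known; the members were then found by symbol, with no threshold on a value. Named were all members, the targeted genes, the sort gate, and up to 4 genes per further list at least 2-fold different with the largest differences; other genes were chosen after their values were seen. Gene order and promoters came from RefSeq GRCm38.p6. Alternatives were 2 pseudocounts, 2 filters, 4 scalings, 2 fold rules and summed transcripts.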

Additional observations from a re-analysis of the deposited data

How the results depend on the processing

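With 1 library per genotype the spread between mice is unknown, and reads (31 or more per measured member and library) limit only the counting error. Of the 10 members past the size rule, 0 changed sign under the 9 settings tried for single members. That outcome was fixed in advance: the scalings shift the log2 scale by 0.60 at most, less than the size rule of 1. It therefore says nothing about how firm these differences are. The count of higher members stayed between 4 and 6 under 10 of the 11 settings and was 2 with the 3-fold rule, by construction. The count of lower members lay between 4 and 8. The median of the members relative to all genes was 0.07, and -0.12 without the filter on low values, where 36 members and all 22020 symbols entered. Over all measured genes the called genes that were higher made up 32.9% with RPKM as deposited and 72.5% with the gfold constants, against 40.0% and 60.0% for the members. No paired analysis was possible because each genotype has a single library.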

Other observations

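The genes beside Fads2 on chromosome 19, chosen after the values were seen, included further transcripts that were lower in the DKO library. In the RefSeq gene order Rab3il1, Fads3, Fads2, Fads1, Fen1 and Tmem258 follow each other. Rab3il1, which encodes a regulator of a vesicle GTPase, was at 3.46 and 0.130 RPKM, a difference of -1.98 on the log2(RPKM + 1) scale. Fads3 had a difference of -1.33 (123 and 18 reads). Like Rab3il1, it reached the mean of 1 RPKM only through the p53 KO library. Fads2 had a difference of -2.24. On the other side, Fads1 was within 2-fold, from -0.64 to 0.21 over the 5 scalings. The replication nuclease gene Fen1 was at 107 and 91.5 RPKM (-0.22), and Tmem258 (listed as 1810006K21Rik) was at 86.5 and 151 RPKM (0.80). In the stretch around Scd2, Bloc1s2 was at 38.4 and 15.4 RPKM (-1.26), while Ndufb8 was at 143 and 226 RPKM (0.66).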
